A study of Homo sapiens with 7 samples.

Results

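The plasminogen activator system was examined in SUM159 cells through the genes PLAU, PLAUR, PLAT, SERPINE2 and SERPINB2. A gene was taken as measured where the array annotation gave a probe that symbol and no other. This held for 4 of the 5 genes, out of 18417 genes measured. SERPINB2, the gene of plasminogen activator inhibitor type 2, had no such probe and was not analysed here. SUM159 is a mesenchymal triple-negative breast cancer line. The cells carried a doxycycline-inducible lentiviral hairpin, which was a control in Ctrl shRNA (2 arrays) and was directed against SHP2 in SHP2 sh1 (2 arrays) and, with another hairpin, in SHP2 sh2 (3 arrays). The labels call these hairpins CTRL miR, SHP2 miR1 and SHP2 miR2. Every group, the control included, grew in 2D culture with doxycycline for 15 days, refreshed every 2 days. Whether each line was a clone or a pool is not given in the sources used here. Nothing in the labels ties the arrays to separate cultures. The p-values therefore cover only the scatter among these 7 arrays, which may be technical. The question was whether the loss of SHP2, the phosphatase encoded by PTPN11 that relays receptor signals to the MAPK cascade, went with a change in RNA of these genes.

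Plasminogen activators are serine proteases that cut plasminogen, which is inactive, into plasmin, a protease that dissolves fibrin and helps break down the matrix around cells. Urokinase (PLAU) acts mainly at the cell surface, where its receptor (PLAUR) holds it through a lipid anchor, whereas tissue-type activator (PLAT) is best known for dissolving blood clots. Serpins stop these proteases by trapping them in a covalent complex. Among them, protease nexin-1 (SERPINE2) inhibits thrombin, urokinase and tissue-type activator, and plasminogen activator inhibitor type 2 (SERPINB2) inhibits the activators too. Urokinase and its receptor are widely studied in invasive breast cancer, and both genes are known to respond to MAPK signaling through AP-1 and ETS factors, for PLAU largely from an enhancer far upstream of the start site.

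On GRCh38.p14, PLAU is at chr10:73908832-73917494, PLAUR at chr19:43646095-43670169 and SERPINE2 at chr2:223975045-224039286. The 250 bases before a start site of PLAU, PLAUR and SERPINE2 are shown because AP-1 and ETS factors act downstream of the MAPK cascade. They come from the RefSeq promoter table and run 5′ to 3′ on the strand of the gene. Capitals mark the AP-1 letters TGACTCA, the ETS core GGAAG and the CCAAT box, each on either strand. PLAU is on the plus strand (chr10:73910882-73911131), PLAUR on the minus strand (chr19:43670170-43670419) and SERPINE2 on the minus strand (chr2:224031479-224031728).
PLAU: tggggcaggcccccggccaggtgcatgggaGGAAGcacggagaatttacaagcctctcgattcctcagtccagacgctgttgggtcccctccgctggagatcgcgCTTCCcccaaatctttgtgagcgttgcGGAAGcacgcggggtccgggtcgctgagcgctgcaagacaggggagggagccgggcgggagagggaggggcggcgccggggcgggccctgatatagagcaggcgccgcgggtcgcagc
PLAUR: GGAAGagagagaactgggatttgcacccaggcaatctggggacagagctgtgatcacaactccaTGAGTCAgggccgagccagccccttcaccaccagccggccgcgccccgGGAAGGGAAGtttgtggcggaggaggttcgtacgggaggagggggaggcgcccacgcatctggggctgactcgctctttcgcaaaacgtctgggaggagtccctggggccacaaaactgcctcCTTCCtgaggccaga
SERPINE2: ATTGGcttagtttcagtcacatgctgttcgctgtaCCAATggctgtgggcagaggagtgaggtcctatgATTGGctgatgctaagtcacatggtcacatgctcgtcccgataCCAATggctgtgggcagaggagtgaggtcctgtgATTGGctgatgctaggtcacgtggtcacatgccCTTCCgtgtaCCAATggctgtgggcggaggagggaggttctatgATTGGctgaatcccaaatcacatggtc
PLAUR had 1 AP-1 match, 180 to 186 bases before its start, whereas 4.2% of 35116 promoters of this length held one. Neither start of PLAU and neither start of SERPINE2 in the table had an AP-1 match. The ETS core occurred 4 times before PLAUR and 3 times before the PLAU start shown, and 65.1% of promoters held at least 1. A longer ETS motif, CCGGAAG, was found before none of these starts, against 8.52% of promoters. The SERPINE2 window held 7 CCAAT boxes, most of them in near copies of 1 repeated stretch, where 32.0% of promoters held at least 1. How many promoters held as many ETS cores or CCAAT boxes was not counted. Both SERPINE2 windows lie within the span of the gene, and the one shown is further from its 5′ end. The other start of PLAU (chr10:73910360-73910609) had 1 CCAAT box and no ETS core, and the other start of SERPINE2 (chr2:224038641-224038890) had neither. These matches describe the letters of the windows and no binding was measured.

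PTPN11 served as the check of the hairpins. Its RMA expression was 9.53 and 9.18 on the Ctrl shRNA arrays, 7.90 and 6.93 with SHP2 sh1, and 7.96, 7.20 and 7.89 with SHP2 sh2, so that no SHP2 array reached either control, as for 7.17% of all genes. The log2 fold change for the mean of both hairpins was -1.80 (unadjusted p = 0.0014, adjusted p = 0.758 from limma). RMA expression is the log2 brightness of a transcript after background correction and normalization between arrays, and a difference of 1 is a 2-fold difference in brightness. In bulk RNA, fewer cells that use a gene and less RNA per cell cannot be told apart. A pair of arrays, SHP2 sh1 replicate 2 and SHP2 sh2 replicate 2, differed most from the rest. Over all probes they correlated with the other 5 arrays at 0.930 to 0.965 and at 0.886 to 0.936, against 0.981 to 0.992 among those 5. The estimates of the members are therefore also given for 5 arrays, without this pair, where SHP2 sh1 is a single array. Averaged over both hairpins, PTPN11 had -1.44 there (adjusted p = 0.469 from limma). Of the marker genes, the 6 mesenchymal ones ranged from 6.77 to 12.87, 5 of 6 epithelial ones were measured and ranged from 2.89 to 11.25, and the 6 of blood and endothelial cells ranged from 3.90 to 9.09. VIM was at 11.62 to 12.18 over the 7 arrays and AXL at 9.27 to 10.04, and of the epithelial genes EPCAM was at 2.89 to 4.10 and KRT8 at 9.73 to 11.25. CDH1, an epithelial cadherin, was at 5.32 and 5.19 on the control arrays. The SHP2 sh1 arrays gave 5.16 and 7.42 and the SHP2 sh2 arrays 6.20, 7.12 and 5.61. The pair had its highest values, and the other SHP2 sh2 arrays were also above both controls. The part of these differences in the results was not tested.

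None of the 4 measured genes changed in limma's test over 18417 genes at an adjusted p under 0.05. It called 0% of all genes in each of the 4 comparisons. The share of genes with an unadjusted p under 0.05 was 1.09% for SHP2 sh1, 2.35% for SHP2 sh2, 1.94% for their mean and 0.63% for one hairpin against the other, and 0 of the 4 genes were among them. In no member did all 5 SHP2 arrays, or all SHP2 sh2 arrays, lie on one side of both controls. Among all genes, the 5 SHP2 arrays lay above both controls in 8.13% and below both in 7.17%, and the SHP2 sh2 arrays lay above both controls in 24.2% and below both in 16.1%. The SHP2 sh1 arrays lay below both in 12.3% of genes, as in 0 of the 4, and the SHP2 sh2 arrays exceeded both SHP2 sh1 arrays in 2.21%, again as in 0 of the 4. The number of arrays limits the precision, and the intervals below are wide.

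**Figure D1:**
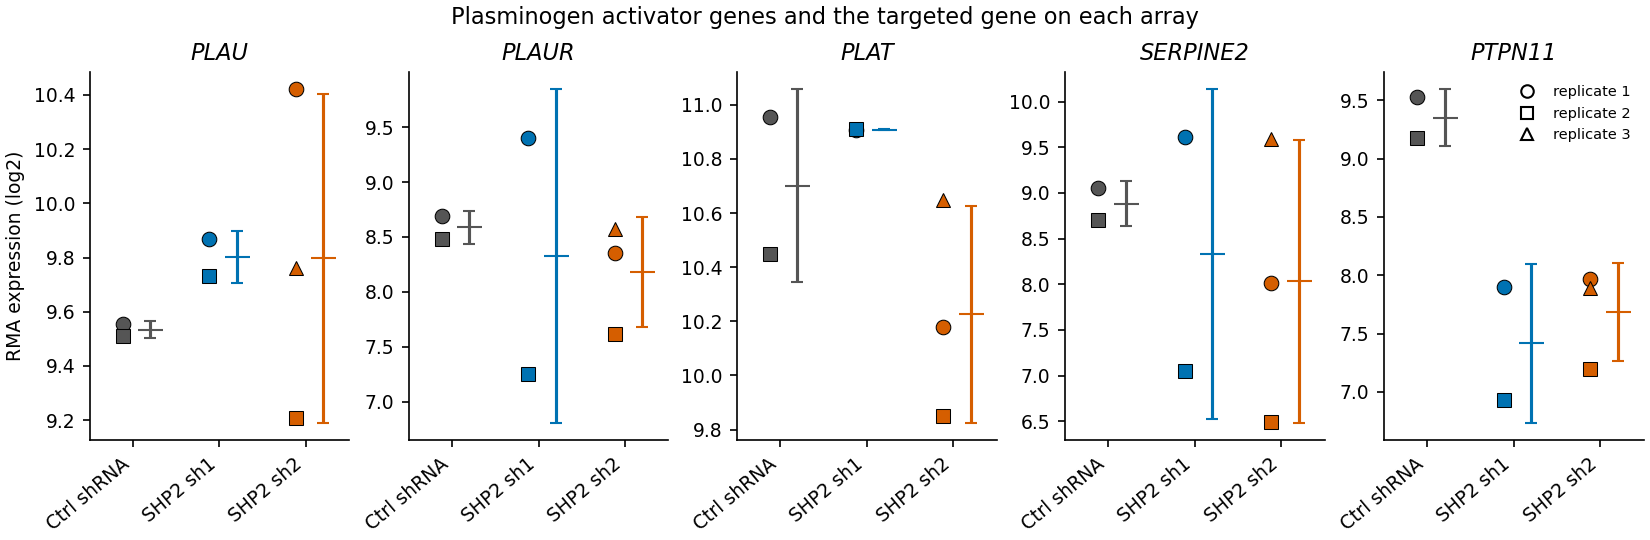
RMA expression (log2) of PLAU, PLAUR, PLAT, SERPINE2 and PTPN11 on the 7 arrays. Symbols stand for replicate numbers, and bars for the mean and SD of a group. PLAU is above both controls on 4 of 5 SHP2 arrays, PLAT is lower on the 3 SHP2 sh2 arrays than on both SHP2 sh1 arrays, and SERPINE2 runs from 6.49 to 9.61.

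PLAU, the gene of urokinase, was the one member with an estimate above 0 for both hairpins. Its expression was 9.56 and 9.51 on the Ctrl shRNA arrays, 9.87 and 9.73 with SHP2 sh1, and 10.42, 9.21 and 9.76 with SHP2 sh2. The controls lay within 0.04 of each other, 4 of the 5 SHP2 arrays were above both, and SHP2 sh2 replicate 2 was below both. Both SHP2 sh1 arrays exceeded both controls, as they did for 12.8% of all genes. The group values were 9.53 ± 0.03 (SD, n = 2), 9.80 ± 0.10 (SD, n = 2) and 9.80 ± 0.61 (SD, n = 3). PLAU with SHP2 sh1 had a log2 fold change of 0.27 (95% interval -0.65 to 1.18, adjusted p = 0.995 from limma) and of 0.26 with SHP2 sh2 (-0.57 to 1.10, adjusted p = 0.687). On 5 arrays these were 0.33 and 0.56. For the mean of both hairpins it was 0.27 (-0.50 to 1.03, adjusted p = 0.758). The mean was 0.45 on 5 arrays and 0.59 after cyclic loess normalization, with adjusted p of 0.665 and 0.822 from limma.

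PLAUR, the urokinase receptor, was spread more widely than PLAU with SHP2 sh1 but not with SHP2 sh2. Its expression was 8.69 and 8.48 with Ctrl shRNA, 9.40 and 7.25 with SHP2 sh1, and 8.36, 7.62 and 8.57 with SHP2 sh2. The 2 SHP2 sh1 arrays were the highest and the lowest of the 7, on either side of both controls, and the SHP2 sh2 arrays overlapped the controls. The group values were 8.59 ± 0.15 (SD, n = 2), 8.33 ± 1.52 (SD, n = 2) and 8.18 ± 0.50 (SD, n = 3). PLAUR with SHP2 sh1 had a log2 fold change of -0.26 (95% interval -1.88 to 1.37, adjusted p = 0.995 from limma) and of -0.40 with SHP2 sh2 (-1.89 to 1.08, adjusted p = 0.714). The mean of both was -0.33 (-1.70 to 1.04, adjusted p = 0.787). On 5 arrays the sign with SHP2 sh1 turned, to 0.82 (unadjusted p = 0.0099, adjusted p = 0.412 from limma), and that of the mean to 0.35 (adjusted p = 0.598), whereas SHP2 sh2 gave -0.12. Between the hairpins PLAUR had a log2 difference of -0.15 for SHP2 sh2 minus SHP2 sh1 on 7 arrays (adjusted p = 1 from limma) and of -0.94 on 5 (unadjusted p = 0.0064, adjusted p = 0.247).

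PLAT, the gene of tissue-type activator (chr8:42174718-42207565 on GRCh38.p14), was the member whose 2 hairpins lay apart. Its expression was 10.95 and 10.45 with Ctrl shRNA, 10.91 and 10.91 with SHP2 sh1, and 10.18, 9.85 and 10.65 with SHP2 sh2. Each SHP2 sh2 array was below both SHP2 sh1 arrays, a pattern that 3.08% of all genes had. The controls spanned 0.51 and held both SHP2 sh1 arrays and SHP2 sh2 replicate 3 between them. The group values were 10.70 ± 0.36 (SD, n = 2), 10.91 ± 0.0020 (SD, n = 2) and 10.23 ± 0.40 (SD, n = 3). For SHP2 sh2 minus SHP2 sh1 the log2 difference was -0.68 (95% interval -1.38 to 0.011, unadjusted p = 0.053, adjusted p = 1 from limma), rank 121 by p among all genes. It was -0.49 on 5 arrays (adjusted p = 0.469 from limma). Against Ctrl shRNA PLAT with SHP2 sh1 had a log2 fold change of 0.21 (-0.55 to 0.97, adjusted p = 0.995 from limma), of -0.48 with SHP2 sh2 (-1.17 to 0.22, adjusted p = 0.667) and of -0.13 for the mean (-0.77 to 0.51, adjusted p = 0.806). On 5 arrays these were 0.21, -0.29 and -0.041. With SHP2 sh2 the value was -0.22 without Ctrl shRNA replicate 1, -0.73 without Ctrl shRNA replicate 2 and -0.058 under cyclic loess. The sign of the mean turned under cyclic loess, to 0.22.

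SERPINE2, the gene of the inhibitor protease nexin-1, varied most of the 4 genes over the arrays. Its expression was 9.06 and 8.71 with Ctrl shRNA, 9.61 and 7.05 with SHP2 sh1, and 8.01, 6.49 and 9.59 with SHP2 sh2. It spanned 3.11 over the 7 arrays, against 2.15 for PLAUR, 1.21 for PLAU and 1.10 for PLAT. One array of each SHP2 hairpin was above both controls and the other 3 SHP2 arrays were below both, so the groups overlapped. The lowest values were those of SHP2 sh2 replicate 2 and SHP2 sh1 replicate 2. The group values were 8.88 ± 0.25 (SD, n = 2), 8.33 ± 1.81 (SD, n = 2) and 8.03 ± 1.55 (SD, n = 3). SERPINE2 with SHP2 sh1 had a log2 fold change of -0.55 (95% interval -3.23 to 2.13, adjusted p = 0.995 from limma), of -0.85 with SHP2 sh2 (-3.30 to 1.60, adjusted p = 0.673) and of -0.70 for the mean (-2.96 to 1.56, adjusted p = 0.763), a 1.63-fold lower level. On 5 arrays the mean was 0.32 (adjusted p = 0.886), with 0.73 for SHP2 sh1 and -0.083 for SHP2 sh2. Those 5 arrays still held 8.01 and 9.59 for SHP2 sh2.

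**Figure D2:**
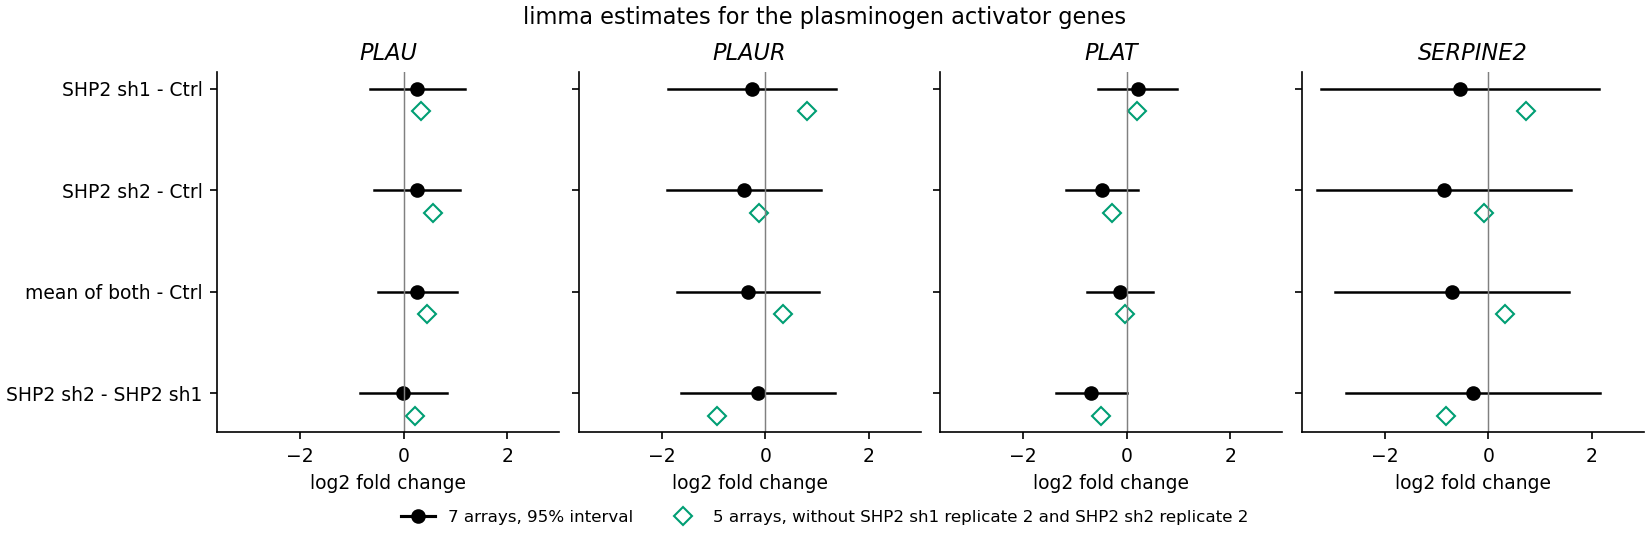
Estimated log2 fold changes of PLAU, PLAUR, PLAT and SERPINE2 in 4 comparisons, with circles and 95% intervals from 7 arrays and diamonds from 5 arrays, which leave out SHP2 sh1 replicate 2 and SHP2 sh2 replicate 2. All intervals include 0, the closest to excluding it being PLAT between the hairpins (-1.38 to 0.011), and the diamonds of PLAUR and SERPINE2 for SHP2 sh1 and for the mean of both lie on the other side of 0.

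Between the hairpins, the intervals of the other 3 genes included 0. SHP2 sh2 minus SHP2 sh1 was -0.0038 for PLAU (-0.84 to 0.83), -0.15 for PLAUR (-1.63 to 1.34) and -0.30 for SERPINE2 (-2.75 to 2.15), each with an adjusted p of 1 from limma. On 5 arrays it was 0.22, -0.94 and -0.81, with adjusted p of 0.746, 0.247 and 0.609. These intervals do not show equal levels with both hairpins. Over the 4 genes the median log2 fold change was -0.026 with SHP2 sh1, -0.44 with SHP2 sh2 and -0.23 for the mean of both, where the medians of all genes tested were 0.044, 0.089 and 0.075. For the mean, 1 of the 4 was above 0 and 3 below, against 10691 and 7726 of all genes. These medians and counts are from 7 arrays. Left to 5 arrays, the mean was 0.45 for PLAU, 0.35 for PLAUR, 0.32 for SERPINE2 and -0.041 for PLAT. The median of all genes was 0.0018 there. All 4 are bright genes, which were lower in general on the pair left out, so all genes are an unlike background. The comparisons with Ctrl shRNA share the same 2 control arrays.

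On the pair of arrays that differed most from the rest, bright genes in general were lower, so each gene was set beside the 4604 genes of similar level (the brightest of 4 equal groups by mean over the 7 arrays, which held all 4 members). The median difference of these genes from the control mean was -0.44 on SHP2 sh1 replicate 2, -0.83 on SHP2 sh2 replicate 2 and -0.13 to 0.0029 on the other SHP2 arrays. PLAU was above that median on all 5 SHP2 arrays, by 0.33 and 0.64 with SHP2 sh1 and by 1.01, 0.51 and 0.23 with SHP2 sh2. Of the 4604 genes, 12.4% were likewise above it on all 5. On SHP2 sh2 replicate 2, the array where PLAU was below both controls, its difference from the control mean was -0.33, against -0.83 for the median gene of its level. For SERPINE2 the distance from that median was -1.39 on SHP2 sh1 replicate 2, -1.55 on SHP2 sh2 replicate 2 and -0.75 on SHP2 sh2 replicate 1, and it was 0.72 and 0.71 on the other 2 arrays. For PLAUR it was 0.81 and -0.89 with SHP2 sh1 and -0.14 to -0.012 with SHP2 sh2. For PLAT it was 0.20 and 0.65 with SHP2 sh1 and -0.40, -0.016 and -0.052 with SHP2 sh2. These offsets are descriptions without a test.

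**Figure D3:**
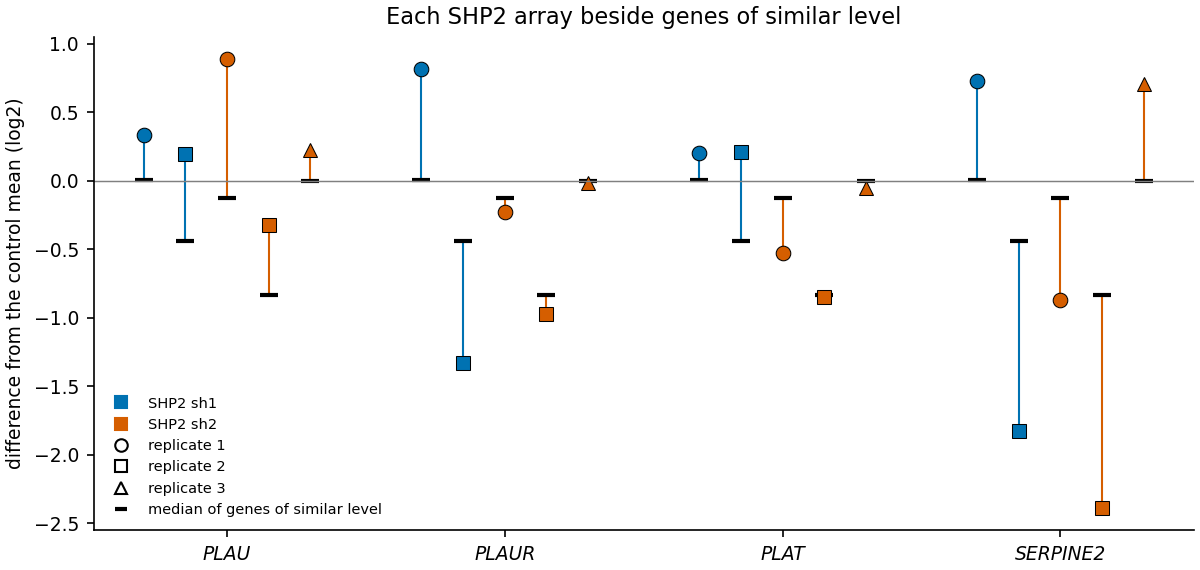
Difference of each SHP2 array from the control mean (log2) for the 4 genes, where symbols stand for replicate numbers and the black bar for the median difference of the 4604 genes of similar level on that array. PLAU lies above the bar on all 5 arrays, by 0.23 to 1.01 (as do 12.4% of the 4604 genes), and SERPINE2 lies furthest below it on SHP2 sh1 replicate 2 and SHP2 sh2 replicate 2, at distances of -1.39 and -1.55.

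The members did not share one profile. The root mean square difference between 2 genes over the 7 arrays, each centered on its own mean, was smallest for PLAU with PLAT (0.49) and largest for PLAU with SERPINE2 (1.09), and it was 0.62 for PLAUR with SERPINE2. A gene that varies little gives a small value with any other such gene. Outside the lists, the nearest profiles to PLAUR were those of SELENOK (0.12) and PDCL (0.12), against a spread of PLAUR itself about its mean of 0.66. Those nearest to SERPINE2, with a spread of 1.13, were GFPT1 (0.21), the rate-limiting enzyme of the hexosamine pathway, and DAB2 (0.21), an endocytic adaptor. PLAT (0.39) was nearest to MTSS1 (0.11) and SERTAD2 (0.14), and PLAU (0.35) to FAM50A (0.15) and ATXN7L3 (0.16). GFPT1 was at 7.78 and 7.07 on SHP2 sh1 replicate 2 and SHP2 sh2 replicate 2 and at 8.90 to 10.43 on the others. The same pair of arrays was lowest for SERPINE2. GFPT1 was picked for its likeness to SERPINE2 over these same arrays, so this is no separate result.

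Of 29 further genes of plasminogen activation, 0 passed the threshold in any of the 4 comparisons. For both hairpins averaged, 16 were above 0 and 13 below, where the median log2 fold change was 0.028, and none had an unadjusted p under 0.05 in limma. On 5 arrays 22 were above 0 and 7 below, with a median of 0.072 against 0.0018 for all genes. The single SHP2 sh1 array gave the same split, with a median of 0.13, and SHP2 sh2 gave 15 above and 14 below, with a median of 0.020. By role, the median for the mean on 7 arrays was -0.22 for plasminogen and its cell surface binding sites. It was 0.26 for proteases upstream of the activators, 0.28 for other inhibitors and -0.23 for partners and clearance receptors of PLAUR. Most genes of the lists with positive medians were at low levels on the 7 arrays. CPB2 was at 4.07 to 4.40, SERPINI1 at 4.09 to 4.50, A2M at 4.86 to 5.74 and SERPINA5 at 5.01 to 5.97. SERPINF2 was at 6.53 to 7.46. Of the proteases, KLKB1 was at 5.28 to 6.05, F12 at 5.99 to 6.91, HPN at 6.17 to 7.03, ST14 at 6.24 to 7.40 and CTSB at 9.65 to 11.26. Left to 5 arrays, the first list had -0.12 (PLG), 0.16 (PLGRKT), 0.041 (ENO1), 0.014 (ANXA2) and -0.094 (S100A10). The integrin genes of the last list ran from -0.16 (ITGA3) to 0.16 (ITGAV) there. The negative medians thus depended on the pair left out. Both positive medians were also smaller on 5 arrays. Other inhibitors had 0.53 (SERPINA5), 0.14 (A2M), 0.072 (SERPINF2), 0.029 (CPB2) and -0.0080 (SERPINI1) there. Upstream proteases had 0.35 (KLKB1), 0.17 (ST14), 0.14 (CTSB), 0.030 (F12) and 0.027 (HPN). S100A10, a plasminogen-binding partner of annexin A2, had -0.76 (-0.094 on 5 arrays), and ENO1, a glycolytic enzyme that also binds plasminogen at the surface, -0.29 (0.041). ST14, the gene of matriptase, which can activate pro-urokinase, had 0.54 (0.17), and KLKB1, the gene of plasma prekallikrein, 0.22 (0.35, unadjusted p = 0.0249 and adjusted p = 0.572 from limma). SERPINA5, the protein C inhibitor, which also blocks urokinase, had 0.49 (0.53, unadjusted p = 0.0112 and adjusted p = 0.503 from limma), and SERPINF2, the main inhibitor of plasmin, 0.38 (0.072).

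SORL1 and LRP1, both receptors that take up complexes of activators with their inhibitors, gave -0.41 and 0.30 for the mean (-0.28 and 0.26 on 5 arrays). SORL1 was at 8.99 and 9.20 with Ctrl shRNA, 9.34 and 8.89 with SHP2 sh1, and 8.46, 8.14 and 8.14 with SHP2 sh2. Of all genes, 16.1% had the SHP2 sh2 arrays below both controls and 3.08% below both SHP2 sh1 arrays. SORL1 had them below all of the other 4 arrays, a pattern whose share among all genes was not counted. Its log2 fold change with SHP2 sh2 was -0.85 (95% interval -1.39 to -0.31, unadjusted p = 0.0079, adjusted p = 0.667 from limma), and SHP2 sh2 minus SHP2 sh1 was -0.87 (unadjusted p = 0.0071, adjusted p = 1). On 5 arrays these were -0.79 and -1.04, with adjusted p of 0.389 and 0.247. SORL1 was not alone in its place between the hairpins. KLKB1, LRP1, MRC2 and SERPINI1 also had all SHP2 sh2 arrays below both SHP2 sh1 arrays. With SORL1 these were 17.2% of the 29 genes. Chosen after their values were seen, A2M, SERPINA5, SERPINF2 and ST14 were above both controls on all 5 SHP2 arrays and ITGA3 was below. That is 13.8% and 3.45% of the 29 genes, where 8.13% and 7.17% of all genes were so placed. Genes of similar level were not compared here. A2M, SERPINF2 and ST14 were highest, and ITGA3 lowest, on the pair of arrays that differed most from the rest. SERPINA5 was highest on SHP2 sh1 replicate 1, at 5.97.

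**Figure D4:**
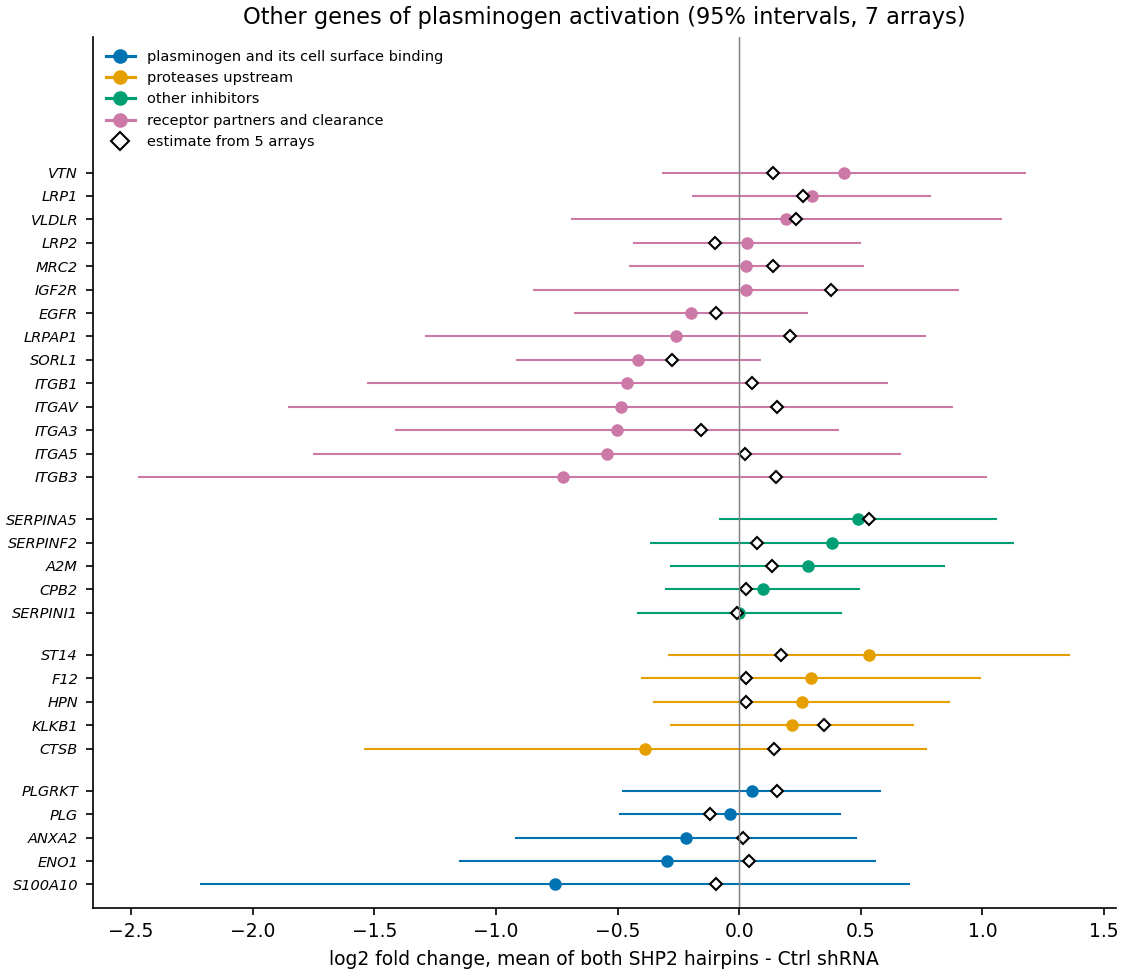
Log2 fold change of 29 further genes of plasminogen activation for the mean of both SHP2 hairpins against Ctrl shRNA, colored by role, with 95% intervals from 7 arrays and open diamonds for the estimate from 5 arrays. All intervals include 0, and the 5 integrin genes lie from -0.73 to -0.46 on 7 arrays and from -0.16 to 0.16 on 5 arrays.

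The 9 genes measured from the serpin cluster that holds SERPINB2 gave 4 log2 fold changes above 0 and 5 below when both hairpins were averaged. The median was -0.10, with 0 past the threshold. SERPINB5, the gene of maspin, had -1.10 and SERPINB8 -1.16. On 5 arrays they had -0.28 and -0.035. They do not stand for the level of SERPINB2 itself.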

How the data were processed

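Total RNA was measured on 7 Affymetrix whole-transcript arrays. The authors read the scans with oligo, of which no version is given in the sources, and deposited log2 values from robust multi-array averaging, running from 1.94 to 13.9, which were used as given. The labels name an RNeasy kit and the study's array methods TRIzol. Of 33297 probes, 19460 had 1 symbol, 1754 several and 12083 none in the annotation used. Symbols were updated through the gene ID with RefSeq (GRCh38.p14; 19429 found). The probe of largest interquartile range stood for each of 769 genes with several; the 4 members had 1 each. limma 3.58.1 (R 4.3.3) fitted 3 group means on 7 arrays with eBayes, and two-sided p-values were adjusted over 18417 genes by Benjamini-Hochberg. Intervals are 95%. The procedure was tested on simulated data. Members and lists were chosen with earlier results of these data known. Named were the members, PTPN11, the 2 genes of smallest p in each list (for the mean of both hairpins) and the 2 profiles nearest to each member. Alternatives were other probe rules, a mean of at least 5, cyclic loess, median centring, trend, array weights, the arrays compared, the replicate block and arrays left out. Promoter motifs were searched in Python 3.11.15. The promoter of PLAT is not shown.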

Additional observations from a re-analysis of the deposited data

Results flagged for a closer look

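PLAT was lower than the control mean on each SHP2 sh2 array and higher on both SHP2 sh1 arrays, so the arrays of the 2 hairpins lay on opposite sides of that mean. This pattern was looked for only among the members, PTPN11 and the genes named from the lists. Its share of all genes was not counted. It can be at most the 3.08% with every SHP2 sh2 array below both SHP2 sh1 arrays. The log2 difference of SHP2 sh2 minus SHP2 sh1 was -0.68 (unadjusted p = 0.053, adjusted p = 1 from limma), and the test of this difference did not pass the threshold. SHP2 sh2 replicate 3 differed from the control mean by -0.052, within the 0.51 between the 2 controls. Groups of 2 or 3 arrays were too small for a test of single outlying arrays.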

How the results depend on the processing

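Over the alternatives, 0 of the 4 members passed the threshold in any comparison. Of 335 recomputed values of the members and PTPN11, 309 kept their direction and 26 turned, and none crossed the threshold. Under cyclic loess PLAT for the mean of both hairpins was 0.22 and PLAU between hairpins 0.12. With array weights, whose estimation stopped early, SERPINE2 was 0.40 with SHP2 sh2 and 0.95 between hairpins. PLAT was 0.038 for the mean there, PLAUR was 0.15 between hairpins, and 30 of all genes were called with SHP2 sh2. The weights were 2.5e-06, 1.58 and 14.3 for replicates 1, 2 and 3 of SHP2 sh2 and 40.8 for each control. Replicate 1 of SHP2 sh2 was thus in effect left out and replicate 3 weighed most. On 5 arrays PLAUR was 0.82 with SHP2 sh1 and 0.35 for the mean, SERPINE2 was 0.73 and 0.32, and PLAU was 0.22 between hairpins. The other probe rules, the filter, median centring, trend and the fit of only the arrays compared turned no sign. Of these, only median centring could move the log2 fold change of a member. Each member had 1 probe and a mean of at least 5, and trend and the smaller fit leave group means as they are. Such unchanged values are among the 309. The cause of the sign changes was not tested.

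Leaving out single arrays gave -1.33 to 0.82 (PLAUR) and -1.83 to 0.73 (SERPINE2) with SHP2 sh1, the highest without SHP2 sh1 replicate 2 and the lowest without replicate 1, and -0.045 to 0.46 for PLAT. With SHP2 sh2 PLAT ran from -0.73 to -0.22 and SERPINE2 from -1.63, without SHP2 sh2 replicate 3, to -0.083, without SHP2 sh2 replicate 2. PLAU with SHP2 sh2 ran from -0.049, without SHP2 sh2 replicate 1, to 0.56. For the mean, PLAUR ran from -0.87 to 0.21, PLAT from -0.39 to 0.12 and SERPINE2 from -1.34 to -0.06. Between hairpins PLAU ran from -0.32 to 0.29, PLAUR from -1.22 to 0.93, SERPINE2 from -1.58 to 0.98 and PTPN11 from -0.21 to 0.75. A lone array left in a group is assumed to vary like the others.

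With the replicate block, in which replicate 3 of SHP2 sh2 has no partner and adds nothing to the estimate, SERPINE2 was -1.63 with SHP2 sh2 (unadjusted p = 0.0054, adjusted p = 0.212 from limma), -1.09 for the mean (adjusted p = 0.328) and -1.08 between hairpins (adjusted p = 0.876), PLAT was -0.69 with SHP2 sh2 (adjusted p = 0.261), and PLAU was 0.014 between hairpins. No call changed. The numbers are not shown to pair the arrays. Deviations of same-numbered arrays correlated at -0.06 to 0.02 between Ctrl shRNA and either hairpin and at 0.62 and 0.85 between hairpins, but SHP2 sh1 replicate 1 correlated at 0.81 with replicate 3 of SHP2 sh2. In a group of 2 arrays the deviations from the group mean are equal and opposite, so these correlations are not independent of each other.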
